A study of Homo sapiens with 6 samples.

Results

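The 8 probes described here are those of the microRNA (miRNA) array that carry the names of the miR-34 and miR-449 family: hsa-miR-34a-5p, hsa-miR-34a-3p, hsa-miR-34b-5p, hsa-miR-34b-3p, hsa-miR-34c-5p, hsa-miR-34c-3p, hsa-miR-449a and hsa-miR-449b-5p. They were taken by name from the 2555 human miRNA probes of each array, by a rule that uses names and no measured value. The arrays were hybridised with total RNA of HuCCT1, an established human cholangiocarcinoma (CCA) cell line. Control cells (0 ng/ml TGF-β, 3 arrays) and cells treated with 10 ng/ml TGF-β (3 arrays) were both harvested after 72 h, and treatment was the only stated difference between them. The first chip carried the 3 control arrays together with TGF-β array 1, whereas a second chip held the other two TGF-β arrays. The labels do not state whether the arrays of a group came from separate cultures, so that p-values measure the spread between these arrays only.

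miR-34a, miR-34b and miR-34c are known as tumour-suppressive miRNAs that repress cell cycle and survival genes as well as Snail, a transcription factor of epithelial-mesenchymal transition (EMT). The miR-449 miRNAs share the target-recognising seed of miR-34, are induced by E2F1, and are abundant together with miR-34b and miR-34c in multiciliated epithelia. Snail itself was not measured on these arrays.

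The mature sequences are shown because the seed (bases 2 to 8, in capitals) differs between the arms and groups the 5p arms of the family. RefSeq (GRCh38.p14) gave a mature sequence for 7 of the 8 members, written here 5′ to 3′.
hsa-miR-34a-5p: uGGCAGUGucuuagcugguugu
hsa-miR-449a: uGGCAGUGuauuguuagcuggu
hsa-miR-449b-5p: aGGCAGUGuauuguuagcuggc
hsa-miR-34b-5p: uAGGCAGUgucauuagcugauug
hsa-miR-34a-3p: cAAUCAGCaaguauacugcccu
hsa-miR-34b-3p: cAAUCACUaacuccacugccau
hsa-miR-34c-3p: aAUCACUAaccacacggccagg

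hsa-miR-34a-5p, hsa-miR-449a and hsa-miR-449b-5p had the same seed, whereas in hsa-miR-34b-5p the same run of bases began at base 3 instead of base 2. Of the 2235 array probes with a RefSeq mature sequence, none outside the family and its listed relatives had the seed of hsa-miR-34a-5p or of hsa-miR-34b-5p. hsa-miR-449a and hsa-miR-449b-5p were 2 edits apart (substitutions, insertions or deletions), hsa-miR-34a-5p and hsa-miR-34b-5p 4 edits, and hsa-miR-34a-5p and hsa-miR-449a 6 edits. Cross-hybridisation between these members was not tested. The 3p arms shown differed from each other in their seeds. hsa-miR-34b-3p was 6 edits from hsa-miR-34a-3p and 6 edits from hsa-miR-34c-3p, whereas hsa-miR-34a-3p and hsa-miR-34c-3p were 10 edits apart.

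The members come from 3 places in the genome (GRCh38.p14). MIR34A lies on the minus strand at chr1:9151668-9151777 within its host gene MIR34AHG. MIR34B (chr11:111512938-111513021) and MIR34C (chr11:111513439-111513515) lie next to each other on the plus strand, within the bounds of MIR34BHG and BTG4. MIR449A (chr5:55170532-55170622) and MIR449B (chr5:55170646-55170742) lie on the minus strand within CDC20B, a gene of multiciliated cells.

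None of the 8 miRNAs was detected on any of the 6 arrays, with or without TGF-β. A probe was called detected when the median brightness of its spot exceeded the mean of the 229 blank spots of its array by 2 SD, and a miRNA was called expressed when this held for every array of at least 1 of the groups. All 48 of the 48 member signals lay below the mean of the blank spots itself, at between -4.43 and -0.45 SD of the blank spots. By the same rule 323 of the 2555 human miRNAs (12.6%) were expressed. Of the 2551 measured on all 6 arrays, 2044 (80.1%) were detected on none. The authors' normalized values likewise listed 0 of the 8 members. RNA of whole cultures was measured, so that a low level in all cells and a higher level in few cells cannot be told apart.

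Lying below the blank spots was common for human probes on these arrays. Of 15326 human probe signals, 78.8% were below the blank mean of their array, and 1788 of 2551 probes (70.1%) were below it on all 6 arrays. Within an array, 25 of the 48 member signals were dimmer than every blank spot, compared with 37.7% of all human signals.

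**Figure D1:**
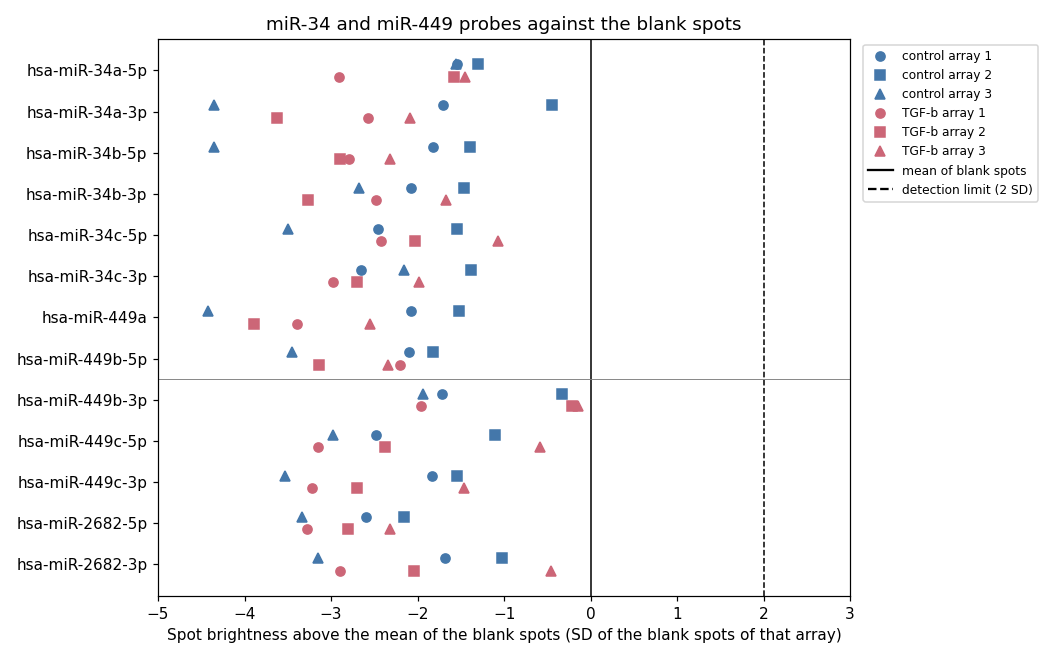
Brightness of the 8 family probes (above the grey line) and of 5 relatives (below it) on 6 arrays, on the x axis as the distance from the blank mean in SD of the blank spots (control arrays in blue, TGF-β arrays in red). All points lie left of the blank mean (solid line) and of the detection limit at 2 SD (dashed line), the family between -4.43 and -0.45.

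hsa-miR-34a-5p is the main arm of miR-34a and the best known member of the family. Its spot brightness was 28.0, 46.0 and 26.8 on control arrays 1 to 3 and 60.1, 68.4 and 36.7 on TGF-β arrays 1 to 3, in scanner units without normalization. The detection limits of the same arrays were 34.3, 68.4 and 33.1 for control and 97.6, 86.0 and 50.5 for TGF-β. The raw values moved with the blank spots of each array, whose means were 30.7, 54.8 and 29.5 for control and 82.3, 76.2 and 42.5 for TGF-β. Over the 6 arrays 3 scanner gains were used, so raw brightness cannot be compared between arrays. Relative to the blank spots, hsa-miR-34a-5p lay at -1.54, -1.30 and -1.56 SD in control cells and at -2.91, -1.58 and -1.46 SD after TGF-β. The groups overlapped on that scale, with TGF-β array 1 the lowest of the 6.

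hsa-miR-34a-3p, the passenger arm of the same hairpin, held the brightest and nearly the dimmest member signal relative to the blank spots. It lay at -1.71, -0.45 and -4.36 SD without TGF-β and at -2.57, -3.63 and -2.08 SD with it. Control arrays 2 and 3 thus lay at opposite ends of the 6, and the TGF-β arrays between them.

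hsa-miR-34b-5p and hsa-miR-34b-3p are the arms of the first hairpin of the MIR34B and MIR34C pair. hsa-miR-34b-5p lay between -4.35 and -1.40 SD in control cells and between -2.90 and -2.31 SD after TGF-β. hsa-miR-34b-3p lay between -2.67 and -1.46 SD in control cells and between -3.27 and -1.67 SD after TGF-β. For both arms, the groups overlapped.

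hsa-miR-34c-5p, from the second hairpin, lay at -2.46, -1.55 and -3.49 SD without TGF-β and at -2.42, -2.03 and -1.07 SD with it. hsa-miR-34c-3p lay between -2.66 and -1.38 SD in control cells and between -2.98 and -1.99 SD after TGF-β. In both cases the ranges of the groups overlapped.

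hsa-miR-449a, the lead miRNA of the ciliated-cell cluster, was the dimmest member. In control cells its brightness was 27.0, 44.4 and 21.7, compared with 56.4, 57.1 and 32.4 after TGF-β. These values corresponded to -2.08, -1.53 and -4.43 SD of the blank spots in control cells and to -3.39, -3.89 and -2.55 SD after TGF-β. It was the dimmest of the 8 on every TGF-β array and on control array 3. hsa-miR-449b-5p, its neighbour in the cluster, lay between -3.45 and -1.82 SD in control cells and between -3.14 and -2.21 SD after TGF-β.

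**Figure D2:**
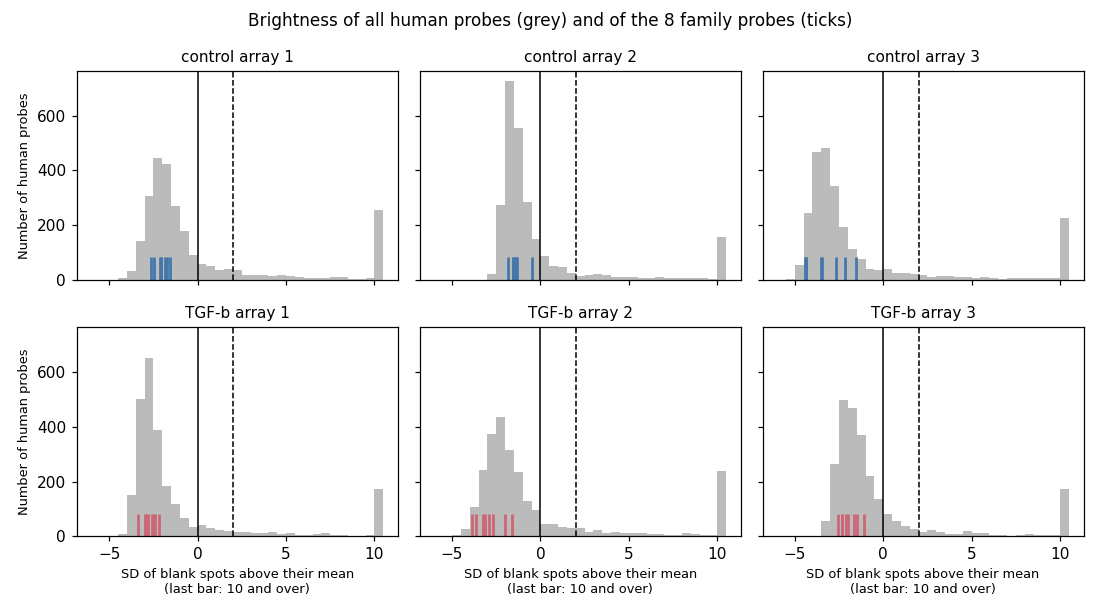
Number of human probes (y axis) by brightness, as the distance from the blank mean in SD of the blank spots (x axis, the last bar holding all probes at 10 and over) on each of the 6 arrays, with the 8 family probes as coloured ticks, the blank mean as a solid line and the detection limit as a dashed line. On every array all ticks fall within the dim bulk of probes, left of the blank mean.

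The arrays also carry spots without a probe and negative control spots, and on every array the means of both were below the blank mean. Against the mean of the 178 spots without a probe, 2 of the 48 member signals were brighter. The share of all human signals brighter than that mean was not counted. None of the member signals was 2 SD above it, compared with 18.7% of all human signals. Against the mean of the 24 negative control spots, 17 of the 48 were brighter, compared with 55.9% of all human signals, and the median member signal lay at -0.33 SD of the negative controls. With these negative control spots as reference, 1 of the 48 member signals passed 2 SD, compared with 24.8% of all human signals. It was hsa-miR-34a-5p on control array 3, at 2.76 SD. On the other 5 arrays this probe lay between -0.39 and 0.57 SD. No member was expressed under either reference, whereas the number of expressed miRNAs over the whole array rose to 420 (16.4%) with the spots without a probe and to 542 (21.2%) with the negative controls.

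On the normalized scale, on which the median of the 292 miRNAs detected on all 6 arrays was set to 25, the detection limit corresponded to 1.83, 4.30 and 2.08 for control arrays 1 to 3 and to 3.68, 2.09 and 3.85 for TGF-β arrays 1 to 3. These levels count from the blank mean of each array. The median human probe lay below that mean by 2.90 (control array 1) to 19.3 (TGF-β array 1) scanner units. A member signal below these levels was not detectable, and the limit differed between arrays. How much of a miRNA would lift a probe from below the blank mean to the limit was not tested. No spot of a member was flagged as failed by the scanner. Whether these 8 probes give signal when their miRNA is present was not tested, as no sample known to contain it was on the arrays.

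Other arms and relatives of the family, outside the 8 names, were also below detection against the blank spots. These were hsa-miR-449b-3p, hsa-miR-449c-5p, hsa-miR-449c-3p, hsa-miR-2682-5p and hsa-miR-2682-3p, of which 5 of 5 were detected on no array. The sequences of hsa-miR-449c-5p and hsa-miR-2682-5p are shown because their seed, in capitals, is that of hsa-miR-34b-5p.
hsa-miR-449c-5p: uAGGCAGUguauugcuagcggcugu
hsa-miR-2682-5p: cAGGCAGUgacuguucagacguc
The highest signal of this group was that of hsa-miR-449b-3p, at -0.14 SD of the blank spots. With the negative control spots as reference it passed 2 SD on control array 3 (2.18 SD) and TGF-β array 2 (2.44 SD), and no other relative did on any array. That of hsa-miR-449c-5p was -0.58 SD and that of hsa-miR-2682-5p -2.16 SD. Among the 2235 probes with a RefSeq sequence, every one with either of the seeds was thus below the blank mean on all 6 arrays. The other probes, hsa-miR-34c-5p among them, were not searched for the seeds of hsa-miR-34a-5p and hsa-miR-34b-5p.

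Base content moved with detection across the array. The share of expressed miRNAs was 2.56% among those with under 35% G and C bases, 9.56% (68 of 711) at 45 to under 55%, and 30.4% (121 of 398) at 65% and over. The 7 members with a sequence had between 43.5% and 54.5% G and C, 6 of them in the band from 45 to under 55% and 1 in the band below, where 7.49% (32 of 427) were expressed. In the band of the 6, the median probe had a mean brightness percentile of 39.2, and the 6 members lay between 16.4 and 52.8. The part of base content in the low signal of the members was not tested.

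**Figure D3:**
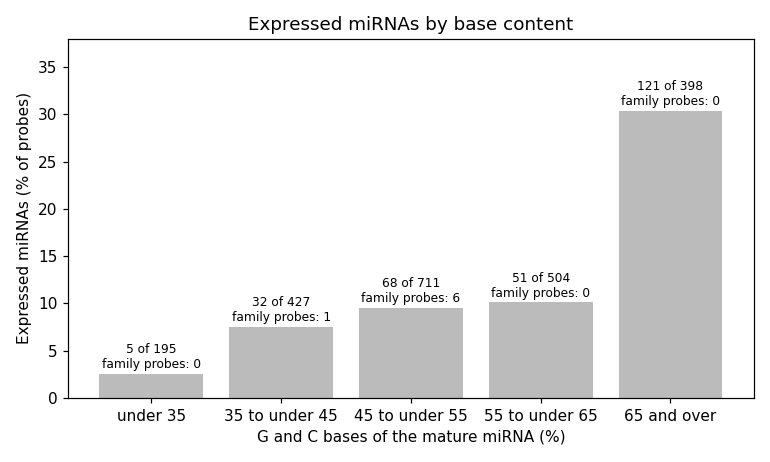
Share of expressed miRNAs (y axis, % of probes) by the G and C content of the mature miRNA (x axis, %), with the number of expressed miRNAs, of probes and of family probes over each bar. The share is 30.4% at 65% and over, and the family lies in the bands at 7.49% and 9.56%.

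Whether TGF-β moved the family could be asked only below detection, so no fold change was computed and the rank of each probe was compared instead. The rank is the percentile of a probe's brightness among the human probes of the same array, which does not depend on the scaling of the array. Of the 48 member signals, 37 were below the median human probe of their array, and the median member percentile was 33.9. The mean percentile was lower with TGF-β for 6 of the 8 members and higher for hsa-miR-34c-5p and hsa-miR-449b-5p. The share of all human probes with a lower mean was not counted, so 6 of 8 cannot be called particular to the family. For 4 of the 8 members, the direction of the difference rested on single arrays. The difference of hsa-miR-34a-3p went from -14.5 to 1.63 points without control array 2, and that of hsa-miR-34b-5p from -5.93 to 1.5 points without the same array. That of hsa-miR-34b-3p went from -9.52 to 3.63 points without TGF-β array 2. That of hsa-miR-449b-5p went from 1.64 to -14.0 points without TGF-β array 1 and to -1.93 points without control array 2. On chip 1 alone the differences of hsa-miR-34a-3p, hsa-miR-34b-5p and hsa-miR-34b-3p were 6.71, 7.08 and 7.38 points, and net of local background that of hsa-miR-34a-3p was 8.5 points. hsa-miR-34a-5p, hsa-miR-34c-3p and hsa-miR-449a were lower with TGF-β under each of these settings, with differences nearest to 0 of -3.92 points for hsa-miR-34a-5p without TGF-β array 1, -3.01 points for hsa-miR-34c-3p without control array 3 and -9.58 points for hsa-miR-449a net of local background. Over all human probes, 189 of 2551 (7.41%) had groups that did not overlap in percentile, and 91 (3.57%) were higher with TGF-β. Of the 8 members this held for 1, hsa-miR-34c-5p.

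hsa-miR-34c-5p had percentiles of 20.6, 37.2 and 30.3 on control arrays 1 to 3 and of 54.8, 45.3 and 63.4 on TGF-β arrays 1 to 3. The lowest TGF-β array lay above the highest control array. The means were 29.3 ± 8.35 (SD, n = 3) in control cells and 54.5 ± 9.04 (SD, n = 3) after TGF-β, a difference of 25.2 points with p = 0.10 in a 2-sided exact permutation test, the smallest p that 3 arrays against 3 allow. On chip 1 alone the difference was 25.5 points, from 1 TGF-β array. The groups overlapped when the probe was measured in SD of the blank spots, and net of the local background around each spot the difference turned to -16.9 points. On that last scale 8.58% of all human probes and 0 of the 8 members had groups without overlap.

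The percentiles of hsa-miR-34a-5p were 52.2, 49.9 and 74.2 in control cells and 31.0, 57.2 and 52.4 after TGF-β. Their means were 58.7 ± 13.4 and 46.9 ± 14.0 (SD, n = 3 each; 2-sided exact permutation test, p = 0.60). hsa-miR-34a-5p was the member with the highest mean rank in control cells, yet its groups overlapped. On chip 1 alone, 1 TGF-β array against the 3 control arrays, the difference was -27.8 points.

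hsa-miR-449a had percentiles of 33.8, 38.4 and 3.09 in control cells and of 9.67, 2.00 and 11.6 after TGF-β. The means were 25.1 ± 19.2 and 7.74 ± 5.06 (SD, n = 3 each; 2-sided exact permutation test, p = 0.30). The 3 TGF-β arrays were close together, and control array 3 lay within their range.

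hsa-miR-34a-3p ranged most widely among the members, over 69.7 percentile points from 4.11 to 73.8. Its means were 41.6 ± 35.1 in control cells and 27.1 ± 22.1 after TGF-β (SD, n = 3 each; 2-sided exact permutation test, p = 0.60). The range over the 6 arrays was 36.4 to 69.7 points for the 8 members, and its median over the 2044 probes detected on none was 45.3 points. The remaining members, hsa-miR-34b-5p, hsa-miR-34b-3p, hsa-miR-34c-3p and hsa-miR-449b-5p, had overlapping groups with exact permutation p-values between 0.40 and 1. The mean percentile of hsa-miR-34b-5p was 30.8 ± 23.1 in control cells and 24.9 ± 11.3 after TGF-β, that of hsa-miR-34b-3p was 44.9 ± 12.4 and 35.4 ± 23.1, and that of hsa-miR-34c-3p was 43.1 ± 26.8 and 27.6 ± 4.87 (SD, n = 3 each). In each of these 3 the mean was lower after TGF-β by less than the larger SD of the groups. For hsa-miR-449b-5p, the mean was 28.9 ± 6.20 in control cells and 30.6 ± 27.2 after TGF-β (SD, n = 3 each), and TGF-β array 1 alone was at 61.8. On chip 1 alone its difference was 32.9 points, resting on that array.

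**Figure D4:**
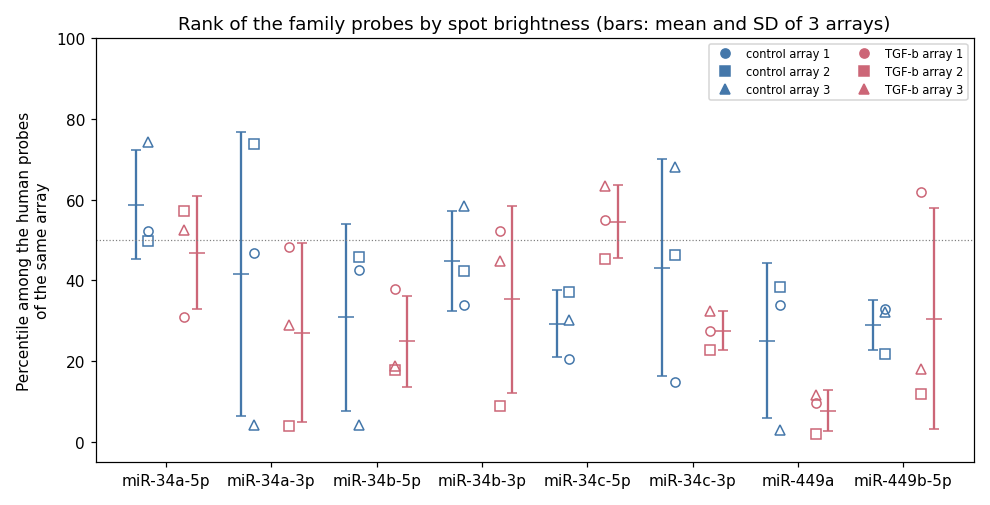
Percentile of the brightness of each family probe among the human probes of the same array (y axis) for control (blue) and TGF-β (red) arrays, with the mean and SD of 3 arrays as bars. Only the points of hsa-miR-34c-5p fall apart by group, with 20.6 to 37.2 in control and 45.3 to 63.4 after TGF-β.

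As miR-34 is also known as a repressor of Snail, the other miRNAs known to target Snail were listed. Of these 8, 6 were expressed, hsa-miR-29b-3p and the miR-30 family (hsa-miR-30a-5p, hsa-miR-30b-5p, hsa-miR-30c-5p, hsa-miR-30d-5p and hsa-miR-30e-5p), while hsa-miR-153-3p and hsa-miR-203a were detected on no array. None of the 6 passed the adjusted p in either direction (limma, Benjamini-Hochberg over 323 miRNAs), and neither did any other miRNA of the array (0 of 323, 0%; 21 of 323, 6.5%, at an unadjusted p under 0.05). The median log2 change of the 6 was -0.01, compared with 0.01 over all expressed miRNAs, within a range of -0.41 (hsa-miR-30e-5p) to 0.21 (hsa-miR-30b-5p). The median of the list was -0.27 in the authors' normalized values and -0.23 with each array scaled on its own detected probes, and these scalings also moved the median over all expressed miRNAs, to -0.27 and -0.20. Scaling on the 75th percentile moved the list to -0.13 and all expressed miRNAs to -0.10. The median of the list was -0.39 with the chip as a block and -0.47 on chip 1 alone, where the median over all expressed miRNAs was 0.04 and -0.0045. With detection at 3 SD the median of the list was 0.0036, and with detection above the 95th percentile of the blank spots 0.0032.

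The labelled cell type was checked against miRNA markers of epithelium and of other cells. Of 7 epithelial miRNAs, 6 were expressed, whereas none of the 4 blood, 7 stroma and muscle, 1 endothelial, 1 hepatocyte and 2 neuronal miRNAs was. Single arrays gave signal for hsa-miR-223-3p (1 TGF-β array) and hsa-miR-9-5p (1 control array). The markers of multiciliated cells were members themselves, hsa-miR-34b-5p, hsa-miR-34c-5p, hsa-miR-449a and hsa-miR-449b-5p, and none was detected.

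None of the 6 expressed epithelial miRNAs passed the adjusted p. Their median log2 change was 0.09. It turned to -0.23 in the authors' normalized values, -0.13 with each array scaled on the probes detected on it and -0.03 after scaling on the 75th percentile. With the chip as a block it was -0.0086, on chip 1 alone -0.08 and with the negative controls as reference -0.03. The median over all expressed miRNAs was 0.01 and, under these settings in the same order, -0.27, -0.20, -0.10, 0.04, -0.0045 and -0.03. hsa-miR-200b-3p (0.30), hsa-miR-200c-3p (0.40), hsa-miR-205-5p (0.13) and hsa-miR-429 (0.05) had positive log2 changes, and hsa-miR-141-3p (-0.65) and hsa-miR-200a-3p (-0.08) negative ones. The normalized signal of hsa-miR-141-3p was 12.3, 8.34 and 13.6 in control cells and 4.10, 5.63 and 15.6 after TGF-β, with overlapping groups (limma adjusted p = 0.97). hsa-miR-200c-3p represses ZEB1 and ZEB2. Its normalized signal was 205, 232 and 194 in control cells and 268, 284 and 278 after TGF-β. The groups did not overlap, as was the case for 32 of the 323 expressed miRNAs (9.91%), hsa-miR-200b-3p among them. The log2 change of hsa-miR-200c-3p, 0.40 ± 0.18 (SE), did not pass the test (limma adjusted p = 0.70), and neither did that of hsa-miR-200b-3p (limma adjusted p = 0.89).

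**Figure D5:**
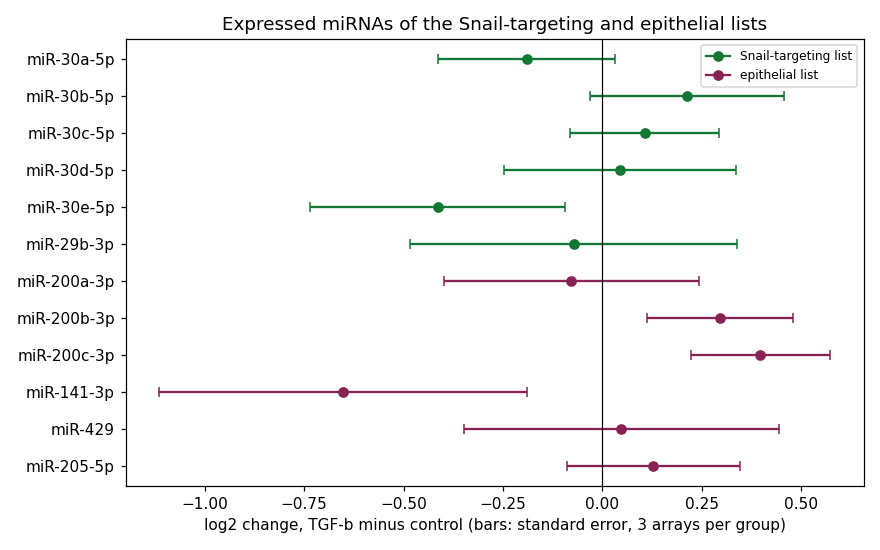
The log2 change of the normalized signal (x axis, TGF-β minus control; points are differences between the means of 3 arrays and bars standard errors) of the 6 expressed Snail-targeting and 6 expressed epithelial miRNAs. The changes lie between -0.65 and 0.40, and none passed the adjusted p.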

How the data were processed

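The authors labelled total RNA with Cy5, hybridised it to 3D-Gene Human miRNA Oligo chips of 1 colour and read the scans with 3D-Gene Extraction software (version not given in the sources used here). The deposited scanner output holds the intensity of each spot as a median over its pixels, without normalization. The authors' normalized intensity values, scaled to a median of 25 on each array with other miRNAs left empty, served as an alternative. Groups and replicate numbers came from the sample labels, and all 6 arrays were used.

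Brightness net of the mean of an array's 229 blank spots was scaled to a median of 25 over the 292 probes detected on all 6 arrays, raised to the dimmest detected value of the array where undetected, and converted to log2. Control spots did not enter, and the 0 to 2 human probes per array flagged as failed were missing. The 323 expressed miRNAs were fitted with limma 3.58.1 in R 4.3.3 (lmFit, eBayes, no covariate), adjusted by Benjamini-Hochberg, with a threshold of 0.05. The fit was tested on simulated data with the spreads of these arrays and 60 of 322 miRNAs changed. It recovered 2.42% of 1.5-fold changes and 67.25% of 2-fold changes. Not passing the adjusted p therefore does not show that a miRNA was unchanged. Single probes were compared by 2-sided exact permutation tests over arrays, without adjustment over the 8 members.

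The members and lists were chosen with earlier results of these data known, and the ranks, the spots without a probe and the negative controls were added after no member was detected. Named miRNAs were the members, their relatives and the listed Snail-targeting and cell type miRNAs, and hsa-miR-4521 and hsa-miR-629-5p were named after their values were seen. The rule also asked for the miRNAs most like each member detected on all 6 arrays, and there was no such member. For arrays with the same replicate number, the deviations from the group means had r = 0.12, 0.24 and 0.33 over 322 miRNAs. Arrays with different numbers were not compared in this way, and the labels do not say what a number marks. Whether the numbers pair the arrays thus remained unknown, and the main tests were unpaired. Results on 2 further lists are not reported here. The number of arrays limits the precision.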

Additional observations from a re-analysis of the deposited data

How the results depend on the processing

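The 8 members were not expressed under any of the 13 other settings. With all 48 signals below the blank mean, the settings that kept the blank spots as reference could not give another outcome. Only the authors' values, the spots without a probe and the negative control spots could. With the negative control spots as reference (a reference chosen after seeing the data), 1 of 48 member signals passed detection, compared with 0 otherwise. The share of all human signals that passed was 24.8% with that reference and 14.8% with the blank spots. The planned log2 changes of members and the differences between members had no value under any setting, as no member was expressed. No miRNA passed the adjusted p in 22 of 24 other settings, with 7 to 31 at an unadjusted p under 0.05. The methods' t-test, adjusted by Benjamini-Hochberg, gave 1 (hsa-miR-4521, adjusted p = 0.019), and leaving out each array gave 0 to 1 (hsa-miR-629-5p, limma adjusted p = 0.039, without TGF-β replicate 3). With the replicate number as a block, 0 passed and 31 had an unadjusted p under 0.05. That fit left the medians of the lists as they were. The groups of 32 of the 323 expressed miRNAs did not overlap. That count was 6 of 349 in the authors' values, 14 of 323 with normexp and 18 of 323 with local background. With each array scaled on its own detected probes, it was 3 of 323. On chip 1 alone (3 arrays against 1) it was 205 of 342. With each array left out, it ran from 37 of 323 to 104 of 339. Groups of fewer arrays separate more easily by design, so the counts with fewer arrays cannot be set against the 32. The difference in percentile of hsa-miR-34c-5p was 20.7 to 29.8 points with each array left out. The cause of the other moves was not tested. Signal over background limits every value of the family, and TGF-β arrays 2 and 3 were on a chip without control arrays.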
